A study of Mus musculus with 4 samples.

Results

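The cyclin-dependent kinase inhibitors are the 7 genes Cdkn1a, Cdkn1b, Cdkn1c, Cdkn2a, Cdkn2b, Cdkn2c and Cdkn2d. They were taken as every probe set of a mouse Affymetrix array whose annotation names that gene and no other, which gave 9 of 45101 probe sets and 7 of 18193 named genes. RNA was measured on 4 arrays, with 1 array for each of Fbw7-deficient LSK, wild-type LSK, Fbw7-deficient MP and wild-type MP cells. LSK cells (Lin-ckit+Sca1+) are the marrow fraction that holds the stem cells, and MP cells (Lin-ckit+Sca1-) are myeloid progenitors, sorted alongside to tell apart genes enriched in LSK. Both genotypes were given polyI:C, a double-stranded RNA that induces interferon, at 20 ug per g in 3 injections, and marrow was taken 2 weeks later. Each genotype's cells were sorted out of 1 pool of marrow from 3 mice, which supplied its LSK and its MP cells alike, and the mice of a pool cannot be told apart. The sources used here give neither the age and strain of the mice nor the Fbw7 allele and how it was deleted.

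Progression from G1 into S phase is driven by cyclin-dependent kinases, and these genes encode the proteins that hold the kinases back. The INK4 proteins, p16 and its relatives (Cdkn2a to Cdkn2d), bind CDK4 and CDK6 and keep D cyclins from activating them. The Cip/Kip proteins p21 (Cdkn1a), p27 (Cdkn1b) and p57 (Cdkn1c) bind cyclin and kinase together and block CDK2 with cyclin E or cyclin A. In mouse stem cells p57 and p27 are known for holding the quiescent state, p21 for limiting cell cycle entry under stress and p18 (Cdkn2c) for limiting self-renewal. Fbw7 is the F-box protein of a ubiquitin ligase that marks cyclin E for degradation, and cyclin E with CDK2 is the complex that the Cip/Kip proteins inhibit. Much of the control of p27 lies in the stability of the protein, which an RNA array does not see.

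The deposited value is an intensity per probe set, and the median of all values on the 4 arrays was 157. A value under that median is marked as dim here, since it is not shown to lie above background. Where a gene has several probe sets, the brightest by mean log2 stands for it. A gene is called higher or lower where the difference of log2 values reaches 2-fold and the brighter of both arrays reaches the median. With 1 array per group there is no replicate, so the spread within a group is not known, no difference was tested, and every statement is about these arrays.

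The wild-type LSK array stood apart in RNA quality, since Gapdh read 4.30 times as bright at its 3' end as at its 5' end, where the other 3 arrays gave 2.60 to 2.95. On the brighter of its probe sets, Fbxw7, the gene of Fbw7, read 1103 in Fbw7-deficient LSK, 1355 in wild-type LSK, 958 in Fbw7-deficient MP and 691 in wild-type MP. No source used here says whether the Fbxw7 probe sets lie in the deleted part, so they do not check the genotype labels. The sorts were checked against their markers: of 13 listed stem cell genes 10 were bright enough to compare, and between LSK and MP of the wild type all 10 were higher in LSK, with a median log2 difference of 2.38. Of the erythroid genes 8 of 8 were lower in LSK (median -2.12).

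Promoter sequence is shown for the 4 genes that were above the median on every array, because their levels carry the comparisons. The windows are the 250 bases before a transcription start in RefSeq on build GRCm38.p6, printed along the gene's strand. Cdkn1a lies on the plus strand at chr17:29090979-29100722 and has a distal start, with its window at chr17:29090729-29090978, and a proximal one at chr17:29093519-29093768. Cdkn1b is at chr6:134920401-134925525 on the plus strand, with its window at chr6:134920151-134920400. Cdkn2c is on the minus strand at chr4:109660876-109666756, with the window of its first start at chr4:109666757-109667006, and Cdkn2d on the minus strand at chr9:21288459-21291421, with its window at chr9:21291210-21291459. The start used for Cdkn2d lies inside the gene's span, so most of its window does too. Capitals mark GGGCGG, the box read by SP1 and KLF factors, TTCCCGC, a letter string of E2F sites, and ACATGT, the centre of a p53 binding element.
Cdkn1a distal: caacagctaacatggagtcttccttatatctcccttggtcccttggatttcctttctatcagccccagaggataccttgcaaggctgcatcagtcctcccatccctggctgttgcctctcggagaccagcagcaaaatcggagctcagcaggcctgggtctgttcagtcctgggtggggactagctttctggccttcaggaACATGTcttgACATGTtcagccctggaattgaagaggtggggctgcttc
Cdkn1a proximal: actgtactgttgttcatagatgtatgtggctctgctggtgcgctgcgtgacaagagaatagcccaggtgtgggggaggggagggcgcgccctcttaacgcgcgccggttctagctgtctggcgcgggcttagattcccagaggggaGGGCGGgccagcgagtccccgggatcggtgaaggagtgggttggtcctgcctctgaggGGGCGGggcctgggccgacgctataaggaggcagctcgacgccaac
Cdkn1b: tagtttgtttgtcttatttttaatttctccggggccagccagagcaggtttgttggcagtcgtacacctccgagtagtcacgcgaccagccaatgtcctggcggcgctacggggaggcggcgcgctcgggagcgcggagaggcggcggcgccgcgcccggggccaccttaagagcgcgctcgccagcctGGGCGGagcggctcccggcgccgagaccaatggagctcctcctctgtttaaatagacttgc
Cdkn2c: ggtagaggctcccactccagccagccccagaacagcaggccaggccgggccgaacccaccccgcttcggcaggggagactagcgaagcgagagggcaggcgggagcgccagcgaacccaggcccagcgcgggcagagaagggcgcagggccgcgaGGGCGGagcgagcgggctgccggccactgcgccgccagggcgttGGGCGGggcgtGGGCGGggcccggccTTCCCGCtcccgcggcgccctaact
Cdkn2d: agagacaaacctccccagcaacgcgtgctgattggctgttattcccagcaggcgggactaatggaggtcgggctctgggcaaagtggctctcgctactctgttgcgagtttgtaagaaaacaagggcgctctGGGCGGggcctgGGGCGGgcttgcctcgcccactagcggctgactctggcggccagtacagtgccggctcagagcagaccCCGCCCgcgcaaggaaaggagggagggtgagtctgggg

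GGGCGG, read on both strands, stands 2 times before the proximal start of Cdkn1a, 1 time before Cdkn1b, 3 times before the first start of Cdkn2c and 3 times before the start used for Cdkn2d, within that gene's span. It is common, and 32.7% of 32851 windows of this length hold it. The E2F strings searched were TTGGCGC, also TTCGCGC, and further TTCCCGC, on both strands, and 6.69% of windows hold at least 1 of them. Of the printed windows, Cdkn2c has such a match, with its first base 25 bases before the start. Cdkn2a has one too, before the first of its 2 starts. The FOXO string GTAAACA (3.17% of windows) and the E-box CACGTG (6.02%) were in none of the 9 windows of the 6 genes that have an entry. Cdkn1c has none in the table used. ACATGT was added after the windows had been seen. It stands 2 times before the distal start of Cdkn1a, where p53 is known to bind, and 81 of 32851 windows (0.247%) hold it at least 2 times. These matches describe letters and not binding.

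Of the 7 inhibitors, Cdkn1a, Cdkn1b, Cdkn2c and Cdkn2d were at or above the median on all 4 arrays by their brightest probe set, Cdkn1c on 1 array only, and Cdkn2a and Cdkn2b on none. Levels of different probe sets cannot be set against each other on an array, so each gene is followed across arrays.

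**Figure D1:**
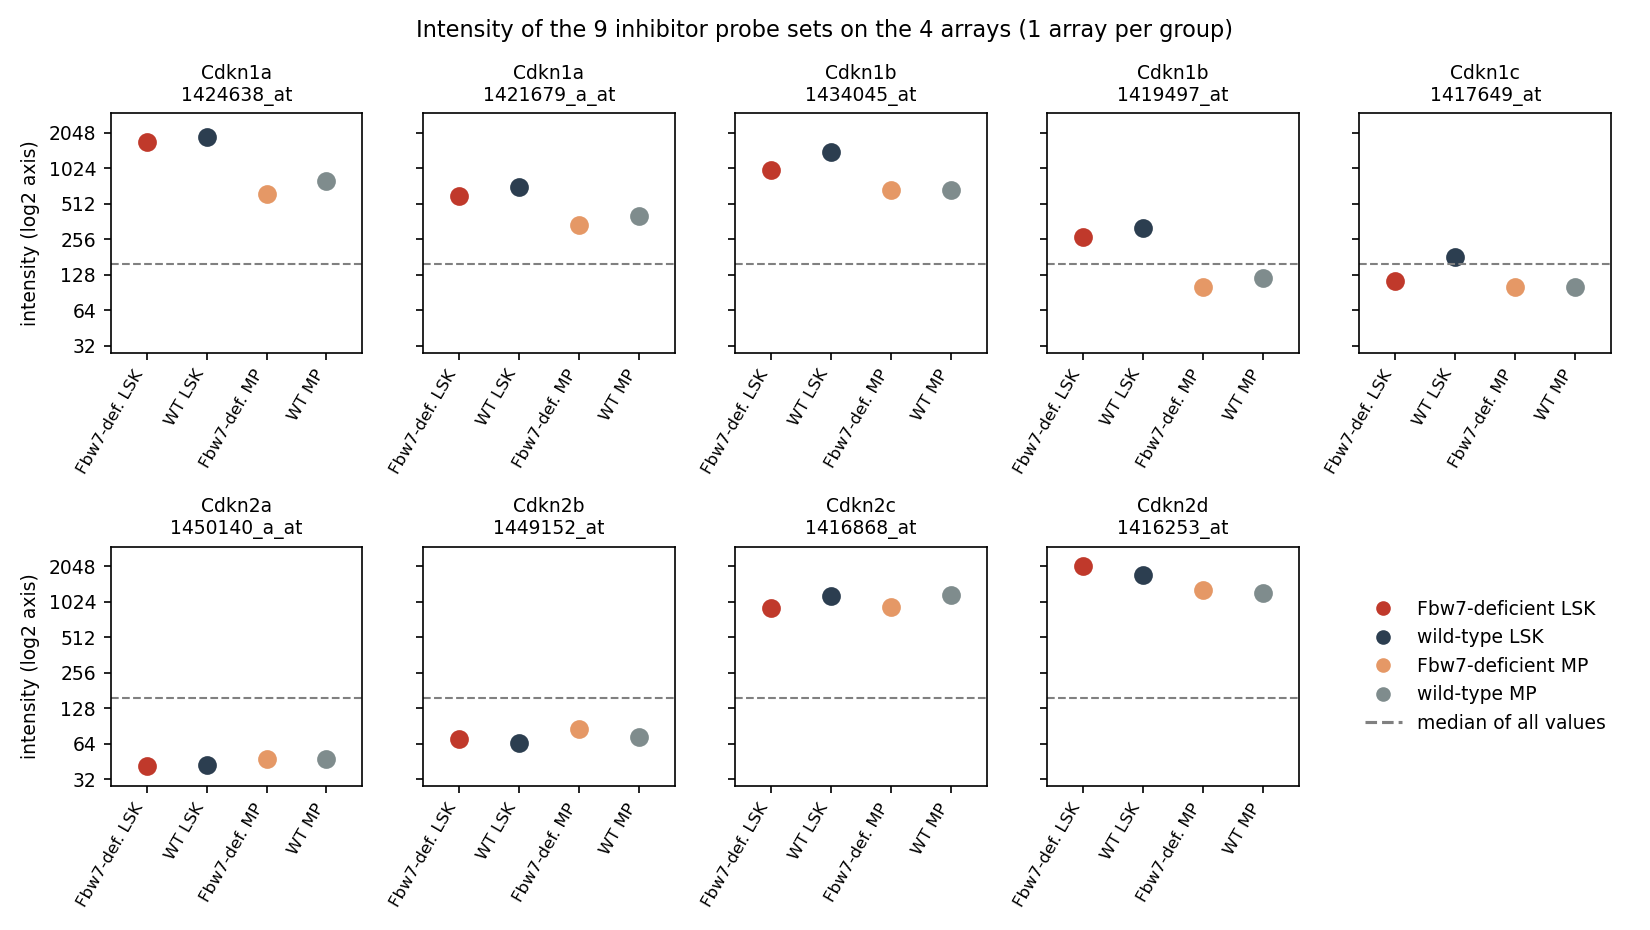
Intensity (vertical, log2 axis) of the 9 inhibitor probe sets on the 4 arrays, 1 point per array, with the median of all values (157) as a dashed line; heights are comparable within a panel and not between panels. Both probe sets of Cdkn1a and of Cdkn1b are higher on the 2 LSK arrays than on the 2 MP arrays, and Cdkn2a and Cdkn2b lie under the line throughout.

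Among the Cip/Kip genes, Cdkn1a, which encodes p21 and is the classic transcriptional target of p53, read 1713 in Fbw7-deficient LSK and 1873 in wild-type LSK, and 619 in Fbw7-deficient MP and 801 in wild-type MP. Both LSK arrays were thus above both MP arrays, with a 2.14-fold step between the lower LSK and the higher MP value, while neighbours within a population lay under 1.5-fold apart. Its second probe set, 1421679_a_at, read 597 in Fbw7-deficient LSK and 711 in wild-type LSK, and 340.2 in Fbw7-deficient MP and 402 in wild-type MP. It put the arrays in the same order with a smaller step of 1.49-fold between the populations.

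Cdkn1b, the gene of p27, read 989.5 in Fbw7-deficient LSK and 1409 in wild-type LSK, and 666 in Fbw7-deficient MP and 663 in wild-type MP on its brighter probe set. Wild-type LSK was the highest array, the Fbw7-deficient LSK value lay between it and the MP values, and the MP values were nearly equal. The dimmer probe set, 1419497_at, gave another picture of the genotypes, with 266 in Fbw7-deficient LSK and 317 in wild-type LSK, and 100.4 in Fbw7-deficient MP and 119 in wild-type MP. On it both MP values are dim, and the step between the populations was larger, at 2.23-fold.

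Cdkn1c, the gene of p57, read 113 in Fbw7-deficient LSK and 180.4 in wild-type LSK, and 101 on each MP array. Only wild-type LSK exceeded the median of 157, and the 3 other arrays lay under it and within 1.12-fold of their neighbours. The gene entered the LSK comparison through the array on which it was highest, so its count there is fixed in part by the level rule.

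Of the INK4 genes, Cdkn2a encodes p16 and, from its first start, the p53 activator p19ARF. It read 41.7 in Fbw7-deficient LSK and 42.5 in wild-type LSK, and 47.9 in Fbw7-deficient MP and 47.0 in wild-type MP. Cdkn2b, the gene of p15, which TGF-beta signalling induces, lies 11.7 kb away on chromosome 4 and read 70.3 in Fbw7-deficient LSK and 65.0 in wild-type LSK, and 85.0 in Fbw7-deficient MP and 73.5 in wild-type MP. All 8 values are dim, and no fold is given for these genes here. The lower quartile of the arrays was 59.9 to 61.9, so Cdkn2a read below it everywhere.

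Cdkn2c, the gene of p18, read 903 in Fbw7-deficient LSK and 1137 in wild-type LSK, and 921 in Fbw7-deficient MP and 1157 in wild-type MP. Its order followed the genotype: both Fbw7-deficient arrays were lower than both wild-type arrays, although the whole range was 1.28-fold. Cdkn2d, the gene of p19INK4d, read 2055 in Fbw7-deficient LSK and 1718 in wild-type LSK, and 1275 in Fbw7-deficient MP and 1218 in wild-type MP. It was highest in Fbw7-deficient LSK and spanned 1.69-fold, with every neighbour in the order under 1.5-fold apart.

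The genotype comparison in LSK cells bears on quiescence, the subject of the study's title. No inhibitor gene was 2-fold apart between Fbw7-deficient and wild-type LSK, where 3.82% of the 11900 genes compared were. All 3 Cip/Kip genes were lower in Fbw7-deficient LSK, by log2 differences of -0.13 for Cdkn1a, -0.51 for Cdkn1b and -0.67 for Cdkn1c. Cdkn1c was compared only because wild-type LSK exceeded the median, and its Fbw7-deficient value is dim. Its place in the count of 3 thus follows in part from the level rule. Cdkn2c was also lower (-0.33) and Cdkn2d higher (0.26). Of all genes compared, 49.6% were below 0 and the median was 0.00. Fewer cells of a type and less RNA per cell cannot be told apart in such sorted populations.

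Cdkn1c was the only inhibitor past 1.5-fold in this comparison, at 1.59-fold lower, with a dim value in Fbw7-deficient LSK. Of all genes, 7.26% were past 1.5-fold in that direction and 11.8% in either, and 5.40% had a difference as low as that of Cdkn1c. A difference as low as that of Cdkn1b was seen in 9.34% of genes, and one as low as that of Cdkn2c in 16.9%. These are positions among all genes on the same 2 arrays, and with 1 array per genotype they say nothing of the spread between animals. The second probe sets gave -0.25 for Cdkn1a and -0.26 for Cdkn1b, so the sign held and the size for Cdkn1b was smaller. The Gapdh ratio was 2.75 in Fbw7-deficient LSK against 4.30 in wild-type LSK, the array that each of these values uses, and the part of RNA quality in them was not tested.

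Markers of cell types moved between the same 2 arrays. All 10 stem cell genes compared were lower in Fbw7-deficient LSK, with a median log2 difference of -0.88 and a summed intensity of 25717 against 45325 in wild-type LSK. Erythroid genes were higher in 8 of 8 (median 1.82, sum 22859 against 6446), as were 11 of 11 neutrophil and monocyte genes (median 1.09, sum 216097 against 112111), and megakaryocyte genes were lower in 5 of 6 (median -1.03, sum 5830 against 15634). Lymphoid genes were higher in 6 of 6 (median 0.43, sum 19781 against 15891). The lowest value of any listed marker was 48.6, for the stem cell gene Hoxb5, which was dim on all 4 arrays. The part of the cell mix in the inhibitor values was not tested. Of the genes of proliferating cells 8 of 11 were above 0 (median 0.15), where 50.3% of all genes were, and no member was called. Mki67, the gene of the proliferation antigen Ki-67, had a difference of 0.16. The largest differences, picked by their values, were those of the mitotic genes Ube2c (0.87), Birc5 (0.60), Aurka (0.51) and Plk1 (0.39). Top2a (-0.06), Mcm2 (-0.06) and Mcm5 (-0.01) were the 3 below 0.

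**Figure D2:**
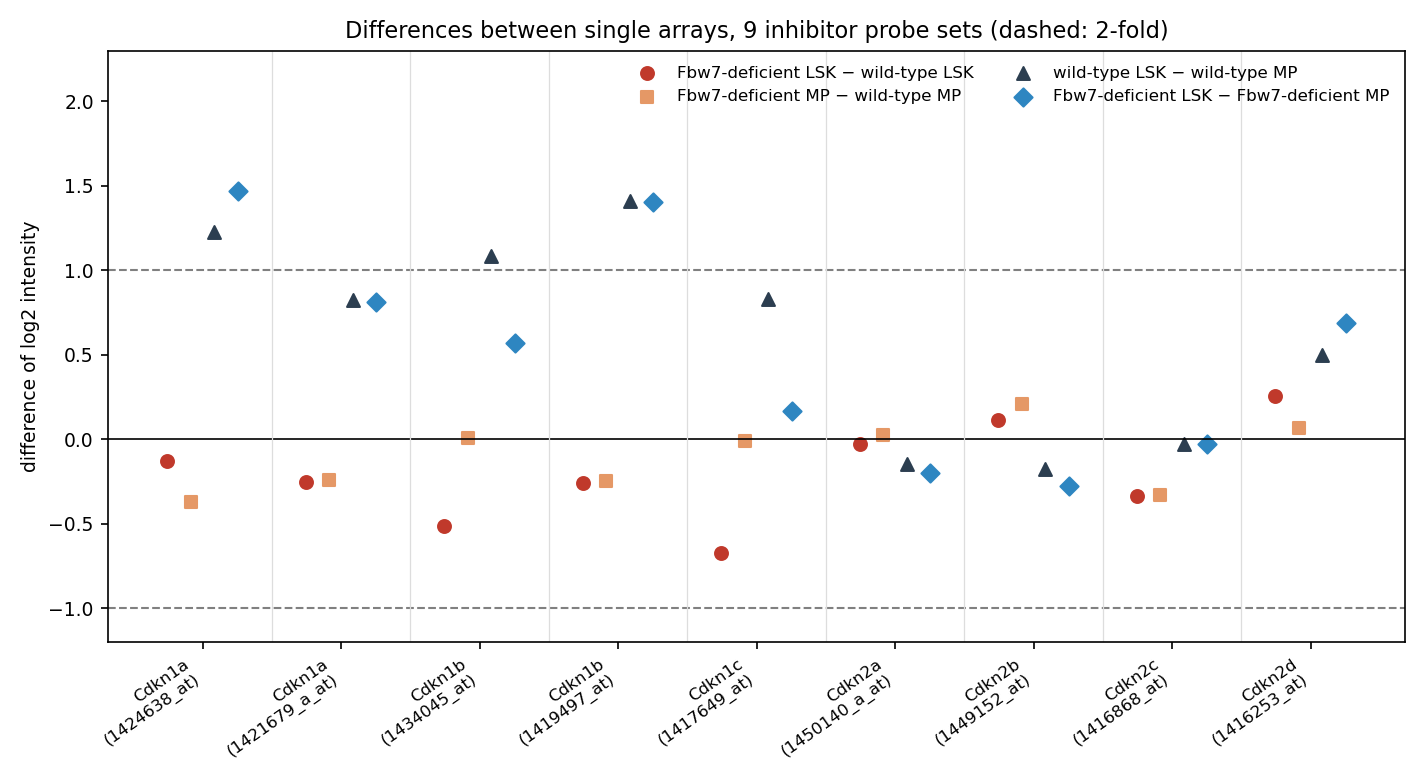
Difference of log2 intensity (vertical) for the 9 inhibitor probe sets in 4 comparisons of single arrays, with 2-fold as dashed lines. No genotype difference reaches a dashed line; LSK against MP does so for 1424638_at of Cdkn1a and 1419497_at of Cdkn1b in both genotypes, and for 1434045_at of Cdkn1b in wild-type cells. The MP values of 1419497_at are dim.

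In MP cells the genotype comparison asks whether the LSK differences are also seen in committed progenitors. No inhibitor was 2-fold apart between Fbw7-deficient and wild-type MP, against 2.29% of 11946 genes, and none was 1.5-fold apart, against 8.17%. Cdkn1a was lower by log2 -0.37 and Cdkn2c by -0.33, whereas Cdkn1b (0.01) and Cdkn2d (0.07) lay near 0. Cdkn1c was dim on both MP arrays and is not compared. On its dimmer probe set Cdkn1b had a difference of -0.25, between 2 dim values. Stem cell genes were lower in 8 of 8 compared (median -0.69). Their sum was 7412 in Fbw7-deficient and 16658 in wild-type MP, over 10 genes that include Mecom and Fgd5, both dim in MP. Fgd5 was higher in Fbw7-deficient MP by 0.62. Erythroid genes were higher in 8 of 8 (median 0.97, sum 59166 in Fbw7-deficient and 34254 in wild-type MP), and lymphoid genes were lower in 6 of 6 (median -0.98). The part of these shifts in the inhibitor values was not tested.

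The genotype differences in LSK and MP were then subtracted from each other. No inhibitor reached 2-fold, where 3.52% of 12239 genes did. The difference of differences was -0.52 for Cdkn1b. By the level rule Cdkn1c entered through wild-type LSK alone, with 3 dim values, and its -0.67 is past 1.5-fold, as for 11.2% of genes in either direction, but describes little more than that array. For Cdkn2c it lay near 0, the gene being lower by 0.33 in both populations. The value for Cdkn1b came from the brighter probe set alone and was -0.01 on the other, so the array does not give 1 answer as to whether the Cdkn1b difference was larger in LSK.

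The MP arrays show which inhibitors are enriched in LSK. Between LSK and MP of the wild type, Cdkn1a and Cdkn1b were called higher in LSK, with log2 differences of 1.23 and 1.09, and no inhibitor was called lower. In this comparison 5.16% of 11985 genes were called higher and 7.56% in either direction. Cdkn1c was higher by 0.83, which is past 1.5-fold, as 19.9% of genes were in either direction. A difference as high as that of Cdkn1c was seen in 7.33% of genes. Cdkn2d was higher by 0.50, and Cdkn2c differed by -0.02. Here too Cdkn1c was compared only because wild-type LSK exceeded the median, and its MP value is dim. The second probe sets gave 0.82 for Cdkn1a, which is under 2-fold, and 1.41 for Cdkn1b, against a dim MP value. Beside the stem cell and erythroid genes given above, 11 of 11 neutrophil and monocyte genes were lower in LSK (median -0.85), and the Gapdh ratio was 4.30 in wild-type LSK against 2.60 in wild-type MP. The part of these in the inhibitor values was not tested.

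The comparison can also be made without the wild-type LSK array, in Fbw7-deficient cells, where stem cell genes had a median of 2.25 and erythroid genes of -1.77. There Cdkn1a was called, at 1.47 between LSK and MP, against 3.83% of 12040 genes called higher and 5.49% in either direction. Its second probe set gave 0.81. Cdkn1b was at 0.57 on its brighter probe set and 1.40 on the other, the second against a dim MP value. Cdkn2d was at 0.69 and, with Cdkn1a, made 2 inhibitors past 1.5-fold, as 14.3% of genes were in either direction. Cdkn2c again differed little, at -0.03. The LSK against MP comparisons of wild-type and of Fbw7-deficient cells share no array, but the cells of each genotype come from 1 pool of mice.

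For Cdkn1a and Cdkn1b, which spanned at least 2-fold over the arrays, the genes of most similar pattern were sought by the Euclidean distance between log2 values centred on each gene's mean over the 4 arrays. Nearest to Cdkn1a were Tmprss3, a transmembrane serine protease gene (distance 0.12), Usp27x, a deubiquitinase gene (0.14), and Mllt6, a partner of leukemia fusions (0.15). Nearest to Cdkn1b were Bclaf3 (0.04), Dexi (0.05) and Hook1, a microtubule-linked adaptor gene (0.05). Bclaf3 read 1814 in Fbw7-deficient LSK and 2573 in wild-type LSK, and 1195 in Fbw7-deficient MP and 1236 in wild-type MP. By their brighter probe sets, both inhibitors had many genes closer to them than each other. At a distance of 0.64, Cdkn1b was the 381st nearest gene to Cdkn1a. The dimmer probe set of Cdkn1b, 1419497_at, was not ranked, and its MP values are dim. Its differences between LSK and MP were 1.41 in wild-type and 1.40 in Fbw7-deficient cells, against 1.23 and 1.47 for Cdkn1a. The rank thus holds for the brighter probe set only. With 4 arrays such a ranking describes these values only.

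**Figure D3:**
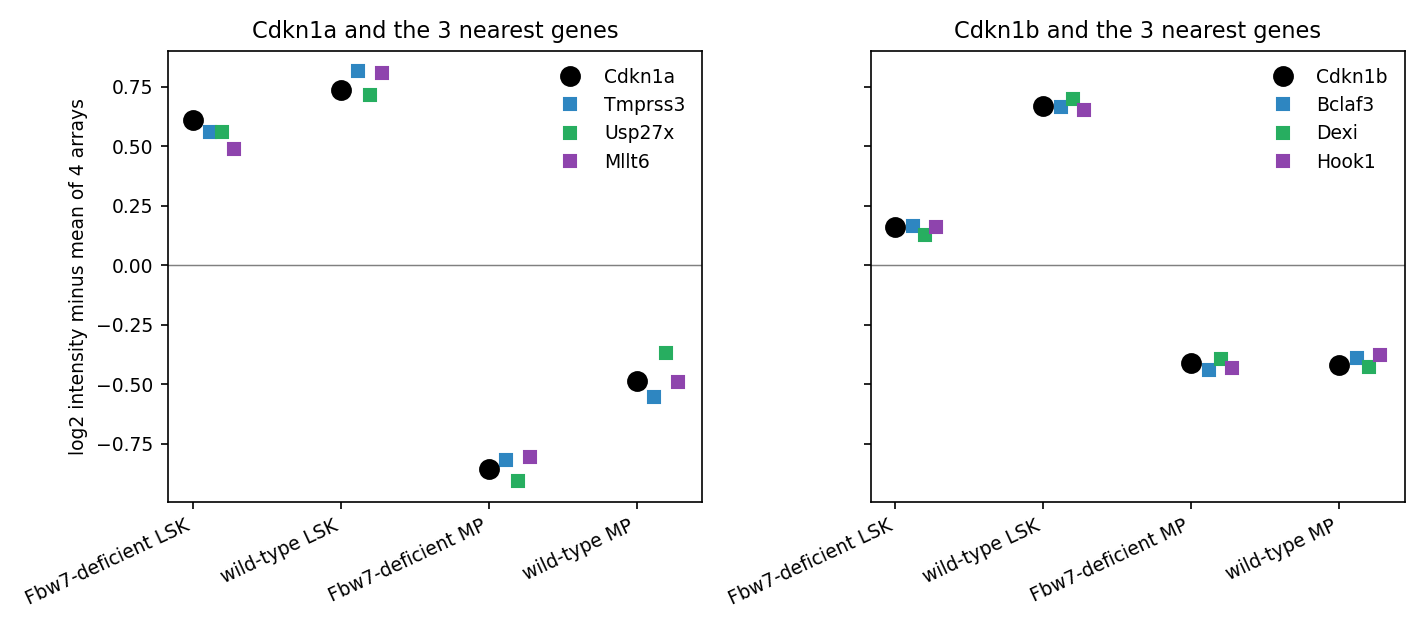
Log2 intensity minus the mean over the 4 arrays (vertical) on each array for Cdkn1a (left) and Cdkn1b (right) with the 3 genes of smallest distance to each. Each gene is shown by its brightest probe set. Cdkn1a falls into 2 levels by population, with both MP arrays below its mean, and Cdkn1b has an intermediate value in Fbw7-deficient LSK.

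The kinases and cyclins that the inhibitors bind were compared next. Of 11 such genes that passed the level rule, 8 were above 0 in Fbw7-deficient against wild-type LSK (median 0.27), where 50.3% of all genes were, and 6 of 11 in MP (median 0.01), where 49.9% were. In LSK 1 of 11 was called, against 3.82% of all genes, and in MP also 1, against 2.29%. Ccne1, which encodes cyclin E1, a protein substrate of Fbw7 and a target of p21, p27 and p57, was called higher in LSK at 2553 in Fbw7-deficient and 1260 in wild-type cells, and had a log2 difference of 0.95 in MP. Its other probe set gave 0.80 in LSK, which is under 2-fold, and 1.09 in MP, so which population passed 2-fold depended on the probe set. Ccne2, the gene of cyclin E2, was at 0.38 in LSK and 0.53 in MP. The kinase genes themselves, named after their values were seen, were at -0.25 (Cdk2), -0.16 (Cdk4), -0.20 (Cdk6) and 0.36 (Cdk1) in LSK. Ccnd1, the gene of cyclin D1, was at 0.36 in LSK and called lower in MP (454 in Fbw7-deficient, 976 in wild-type cells), though 1 of its other probe sets gave 0.07 there.

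Pocket proteins and E2F factors act downstream of the inhibited kinases. In LSK 1 of 13 was called higher and none lower, with a median of -0.20, and in MP none was called (median 0.01), against 3.82% of all genes called in LSK and 2.29% in MP. E2f2 was the 1 called, at 2167 in Fbw7-deficient and 834 in wild-type LSK, and it had a difference of 0.78 in MP. Its other probe set gave 1.27 and 0.80. Rbl2, the gene of the pocket protein p130 that marks resting cells, was lower by -0.60 in LSK and by -0.53 in MP, and on its other probe set by -0.37 and -0.34. E2f7, a repressor of the family, was at -0.72 and -0.45.

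Genes for the turnover of p27 were compared for their bearing on the Cdkn1b product. Of 10 genes listed 9 were measured. In LSK none had a negative difference, with 2 (Cks1b and Cul1, named for their values) at 0.00 and a median of 0.31, where 50.3% of all genes were above 0, and none was called. In MP 6 of 9 were above 0 (median 0.08). Skp2, the F-box protein that marks p27 for degradation in S phase, was at 0.31 in LSK and 0.12 in MP, and was named after its values were seen. Its 4 other probe sets gave 0.02 to 0.58 in LSK. Larger differences came from Ubac1, a subunit of the KPC ligase that acts on p27 in G1 (0.89 in LSK, 0.80 in MP), and from the ubiquitin-conjugating enzyme gene Cdc34 (0.87 and 0.57). The catalytic KPC subunit gene Rnf123 was at 0.49 in LSK and 0.68 in MP, and Cops5, whose product exports p27 from the nucleus, at 0.50 and -0.21.

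Among 23 measured regulators of inhibitor transcription, 1 was called lower in LSK and none higher (median -0.12), and none was called in MP (median -0.09). The share of 1 in 23 is near the 3.82% of all genes called in LSK. The gene called was Mxd4, of the MAX network, at 875 in Fbw7-deficient and 2127 in wild-type LSK; its 3 other probe sets above the median gave -0.20 to -0.74. Foxo3, a transcription factor known to activate Cdkn1b, read 1597 in Fbw7-deficient LSK and 2739 in wild-type LSK, and 1142 in Fbw7-deficient MP and 922 in wild-type MP. It was highest in wild-type LSK, and in MP it was higher by 0.31 in Fbw7-deficient cells. Its second probe set above the median had a difference of -0.52 in LSK and of -0.05 in MP, so the sign in MP depended on the probe set. Id1, an inhibitor of basic helix-loop-helix factors, was higher by 0.86 in LSK and 0.21 in MP. Bmi1 and Ezh2, which repress Cdkn2a as Polycomb proteins, were at -0.07 and -0.14 in LSK, also named with their values known. Of the other listed Polycomb genes, Phc1 was at -0.77 in LSK, Rnf2 at -0.36, Cbx7 at -0.08 and Ring1 at 0.12. Pcgf2 was dim on all arrays. These too were named with values known. In wild-type LSK against MP, 17 of 23 of these genes were above 0 (median 0.33), where 48.5% of all genes were. Phc1, Foxo1 and Foxo3 were called higher, where 5.16% of all genes were, and Phc1 and Foxo1 were named after their values were seen. Foxo3 was also past 2-fold on its other probe set (1.16), and Foxo1 was not (0.39 and 0.23). In Fbw7-deficient LSK against MP, 20 of 23 were above 0 (median 0.43), where 51.6% of all genes were. None was called higher there and 1 lower, Gfi1b at -1.61, where 5.49% of all genes were called in either direction. Phc1 was at 0.90, Foxo1 at 0.93 and Foxo3 at 0.48.

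Of 11 other growth arrest genes none was called in LSK (median -0.12). Tob1, of an antiproliferative family, was at -0.90 in LSK and 0.02 in MP. Btg2, a p53 target of the same family, was at -0.82 in LSK and called lower in MP, at 743 in Fbw7-deficient and 1495 in wild-type cells. Its other probe set gave -0.50 in LSK and -0.92 in MP, under 2-fold. Ccng2, the FOXO-responsive gene of cyclin G2, was at -0.79 in LSK and also called lower in MP, at 976 in Fbw7-deficient and 2362 in wild-type cells, but its other probe set gave -0.21 in LSK and -0.53 in MP. In MP 2 of 11 were called lower and none higher (median -0.03), against 2.29% of all genes called in either direction, and neither call held on the other probe set.

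**Figure D4:**
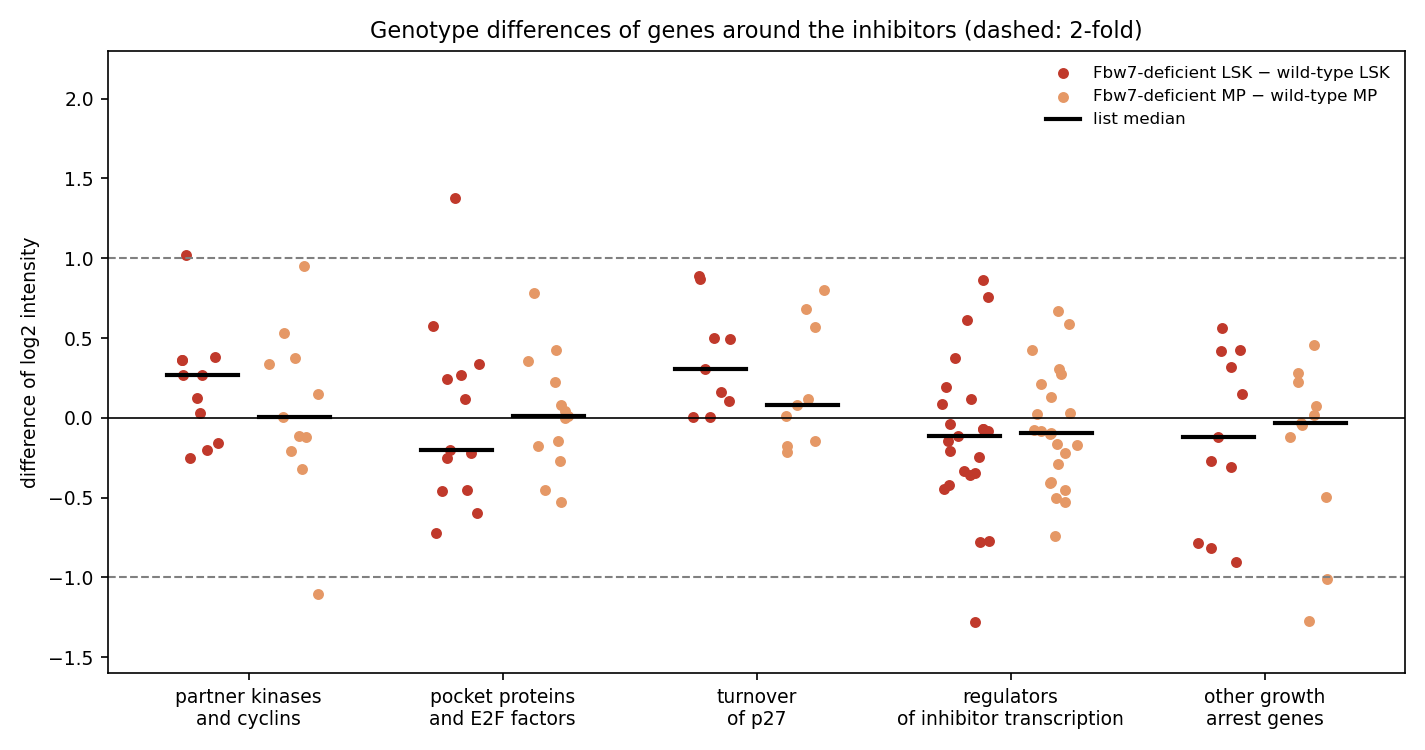
Difference of log2 intensity between genotypes (vertical) for genes of 5 lists around the inhibitors, in LSK and in MP, 1 point per gene that reached the median on at least 1 array, with list medians as bars and 2-fold as dashed lines. Of the 9 genes for p27 turnover none lies below 0 in LSK, with Cks1b and Cul1 at 0.00, and the other lists spread to both sides.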

How the data were processed

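Each deposited value is the intensity of a probe set, not in logs, made with RMA per the submitters' processing notes. The sources used here give no version or settings. RMA equalises the distributions of arrays and compresses differences of dim genes. Per the labels, 20 ng of total RNA was amplified in 2 cycles, which favours the 3' ends of transcripts. All 4 columns were used and taken to log2 with no further scaling.

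Of 45101 probe sets, 34945 name 1 gene, 932 several and 9224 none here, the controls among the last. Symbols were updated by gene ID to RefSeq (GRCm38.p6). Of 18193 genes, 12239 reached the median of all values (157) on at least 1 array. Differences are the first named array minus the second. With 1 array per group the spread within a group is not known, and no test was run; groups follow the sample titles. The members and lists were chosen with earlier results of these data known. Genes named beside the members are the 3 nearest in pattern, up to 3 per list with the largest genotype difference, and a few said to be named with values known. The planned comparison of protein sequences was not made. Alternatives were the choice of probe set, the level filter, an offset of 50, array scaling and a threshold of 1.5-fold. Calculations used Python 3.11.15, numpy 2.4.6 and pandas 2.3.3, and the calling step was tested on simulated data.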

Additional observations from a re-analysis of the deposited data

Results flagged for a closer look

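Cdkn1b had genotype differences of opposite sign in the 2 populations on its brighter probe set: log2 -0.51 in Fbw7-deficient against wild-type LSK and 0.01 in Fbw7-deficient against wild-type MP, which are -0.52 apart. The difference was not tested, since each value comes from 1 array per genotype. On the second probe set both were negative (-0.26 and -0.25). Cdkn2a also differed in sign, with -0.03 in LSK and 0.03 in MP, a difference of -0.052, which was not tested either. All its values are dim, so these signs are not read as a difference between genotypes.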

How the results depend on the processing

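Each difference of the 7 inhibitors in the 4 comparisons and in the difference of differences was recomputed under 5 alternatives. Only Cdkn1a and Cdkn1b have more than 1 probe set, so for the other genes the choice of probe set could change nothing. The bound of 1.5-fold is wider than many of the differences, so a value that falls to near 0 can stay within it. With these limits, 174 of 175 such values stayed within 1.5-fold of the reported one. The exception was Cdkn1b in Fbw7-deficient LSK against Fbw7-deficient MP, at 1.40 in place of 0.57 with the probe set of largest range. That choice takes the dimmer one, with MP values under the median. In this comparison 2 inhibitors, Cdkn1a and Cdkn1b, were then 2-fold apart in place of 1. Of all genes, 7.69% were 2-fold apart with that choice, in place of 5.49%. Without a sign change, Cdkn1b in LSK ranged from -0.54 to -0.26 and Cdkn1c from -0.70 to -0.50. The difference of differences of Cdkn1b ranged from -0.57 to -0.01. In MP, Cdkn1b (-0.25 to 0.03) and Cdkn1c (-0.01 to 0.02) took the other sign under 2 alternatives each. With a threshold of 1.5-fold the count was 1 in LSK between genotypes (Cdkn1c), 2 in Fbw7-deficient LSK against MP (Cdkn1a and Cdkn2d) and 1 for the difference of differences (Cdkn1c), where 2-fold gave 0, 1 and 0. Of all genes, 11.8%, 14.3% and 11.2% were past 1.5-fold in these. The other counts stayed within 1.5 times. No paired analysis was possible because the groups share only 1 replicate number; each genotype is 1 pool of mice, and the difference between its LSK and MP cells is given for each pool in the report. With 1 array per group none was left out. The number of arrays limits the precision, and for Cdkn1c, Cdkn2a and Cdkn2b the signal over background does too.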
